A study of Mus musculus with 2 samples.

Results

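The genes described here are the 9 that make up the CSF1 axis and a set of receptors and bridging molecules for the clearance of apoptotic cells: Csf1, Il34, Csf1r, Trem2, Tyrobp, Mertk, Axl, Gas6 and Pros1. They were taken by symbol from the 31053 genes of the count matrices, and all 9 were found under 1 identifier each. The cells came from dorsal root ganglia (DRG) of Swiss mice of both sexes at 2 weeks of age, with no further genotype or agent named, and were enzymatically dissociated, spun through a density gradient and kept on laminin in medium with horse serum for 3 days. Libraries A and B are replicates of that single condition, with no uncultured or treated group among them, and nothing in the labels says that they came from separate mice or cultures, so every p-value here measures only the spread between the 2 libraries. Of 10948 barcodes, 10730 cells had at least 200 genes and at most 10% mitochondrial counts (5066 in A and 5664 in B), with a median of 5270 unique molecular identifiers (UMIs, each standing for 1 captured transcript) per cell in A and 4825.5 in B. The libraries shared 8 cell barcodes.

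Cells were clustered without these 9 genes and the pathway genes named further on, and clusters were placed in 4 classes by marker genes: 82 macrophages (37 in A and 45 in B), 810 neurons (435 and 375), 389 fibroblasts (173 and 216) and 9449 glia (4421 and 5028). These classes were rebuilt and need not hold the same cells as the annotation of the study. All 10 macrophage markers were detected in the macrophage class, where their summed level was 22688 CPM (the count of a gene scaled to a common total of all counts) in A and 25435 CPM in B, against 38.1 and 171 CPM in neurons, 2.83 and 3.32 CPM in fibroblasts, and 5.35 and 6.80 CPM in glia. In macrophages 5 of the 6 markers of monocytes and dendritic cells (Ccr2, Ly6c2, Flt3, Cd209a and Xcr1) had no UMI and the remaining one, Itgax, had 4.75 and 13.4 CPM, whereas the 5 markers of resident macrophages summed to 247 CPM in A and 403 CPM in B. Among these 5, Timd4 had 1 UMI in A and none in B. Markers of other types were counted in the macrophage class as well: the 8 glial markers summed to 1065 and 665 CPM, against 4012 and 3950 CPM in glia, and the 8 fibroblast markers to 1906 and 526 CPM, against 25439 and 22784 CPM in fibroblasts and 2060 and 2078 CPM in glia. Of the fibroblast markers Pdgfra and Twist2 had no UMI in macrophages, and Dcn had 3 UMIs in A and 41 in B. Median depth differed between the classes, at 8667 and 9203 UMIs per macrophage, 29532 and 27442 per neuron, 12173 and 11180.5 per fibroblast, and 4916 and 4539 per glial cell.

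In the mouse genome build GRCm38, Csf1 is at chr3:107741048-107760469 on the minus strand, Il34 at chr8:110741829-110805924 (minus), Csf1r at chr18:61100598-61132149 (plus), Trem2 at chr17:48346401-48354147 (plus), Tyrobp at chr7:30413760-30417585 (plus), Mertk at chr2:128698956-128802894 (plus), Axl at chr7:25757273-25788705 (minus), Gas6 at chr8:13465374-13494490 (minus) and Pros1 at chr16:62854307-62929346 (plus). Csf1r, Gas6, Il34 and Mertk overlap genes annotated on the opposite strand (Hmgxb3, Tmem255b, Gm15894 with Gm15895, and Gm14011).

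CSF1 and IL-34 are secreted proteins that both bind the receptor tyrosine kinase CSF1R, the signal on which tissue macrophages depend for survival and proliferation, and CSF1 made by axotomised sensory neurons is known to act on macrophages of the DRG and microglia of the spinal cord. TREM2 is a lipid-sensing receptor of macrophages and microglia, and it signals through the adaptor TYROBP (DAP12). MERTK and AXL belong to the TAM family of receptor tyrosine kinases. They do not touch phosphatidylserine on a dying cell themselves but bind it through GAS6 or protein S (PROS1), and GAS6 serves both receptors whereas protein S acts mainly through MERTK. In developing ganglia the precursors of satellite glia are known to take up dying neurons, a task of macrophages in most tissues.

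The RefSeq table of promoters (GRCm38.p6) held 6 of the 9 genes. The 250 bases upstream of the start site are printed for a ligand highest in neurons (Csf1), a receptor counted mostly in macrophages (Trem2), a receptor of macrophages and glia (Mertk) and a receptor highest in glia (Axl), each 5′ to 3′ on the strand of its gene. Capitals mark the SP1 box GGGCGG on either strand in Csf1, Mertk and Axl, and in Trem2 the core GAGGAA of sites for the macrophage factor PU.1, which reads TTCCTC on the other strand.
Csf1, chr3:107760470-107760719: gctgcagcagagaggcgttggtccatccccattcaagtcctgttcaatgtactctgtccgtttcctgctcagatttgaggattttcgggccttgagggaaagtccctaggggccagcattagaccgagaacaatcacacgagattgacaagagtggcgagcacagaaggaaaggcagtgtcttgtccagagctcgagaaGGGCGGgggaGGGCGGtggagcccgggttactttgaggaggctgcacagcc
Trem2, chr17:48346151-48346400: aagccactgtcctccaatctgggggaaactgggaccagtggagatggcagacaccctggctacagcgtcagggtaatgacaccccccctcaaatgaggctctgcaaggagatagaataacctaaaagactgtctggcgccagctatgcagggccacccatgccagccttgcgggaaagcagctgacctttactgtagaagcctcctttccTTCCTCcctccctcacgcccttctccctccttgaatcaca
Mertk, chr2:128698665-128698914: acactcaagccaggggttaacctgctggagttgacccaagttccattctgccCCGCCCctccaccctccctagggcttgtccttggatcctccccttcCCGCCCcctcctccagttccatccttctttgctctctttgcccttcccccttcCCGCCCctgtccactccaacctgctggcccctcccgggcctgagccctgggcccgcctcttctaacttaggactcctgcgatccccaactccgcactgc
Axl, chr7:25788734-25788983: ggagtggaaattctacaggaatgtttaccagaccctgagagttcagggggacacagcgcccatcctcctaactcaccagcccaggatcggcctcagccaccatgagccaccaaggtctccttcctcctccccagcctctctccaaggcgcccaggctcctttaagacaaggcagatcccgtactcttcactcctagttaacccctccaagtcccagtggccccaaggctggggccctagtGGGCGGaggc
The window of Trem2 held no SP1 box, whereas that of Csf1 held 2, that of Mertk 3 and that of Axl 1. Over 32851 promoters of this length 32.7% held an SP1 box and 23.3% the PU.1 core, which was also present in the window of Axl. The pattern TGANTCA, a loose form of the AP-1 motif with any base at N, was held by 6.75% of promoters, and the CRE core TGACG by 17.8%. Both were present in the window of Trem2, the first as TGAATCA, and in none of the other 3 printed. A match is a stretch of letters and not a shown binding site, and no match overlapped another in these windows.

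The members differed in the class that held most of their UMIs. Macrophages were 0.73% and 0.79% of the cells in A and B, yet 98.8% and 92.5% of all Trem2 UMIs came from them, as did 96.7% and 92.2% of Tyrobp and 67.7% and 65.0% of Csf1r UMIs. Glia gave 92.99% and 91.5% of Mertk, 92.3% and 93.6% of Axl, 86.6% and 85.4% of Pros1, and 69.2% and 75.9% of Il34 UMIs. These shares follow the size of the class as well as the level in it. Glia were 87.3% and 88.8% of the cells, and over all genes they held 25413568 of 39569977 UMIs in A and 26316413 of 38295573 in B. Neurons were 8.59% and 6.62% of the cells and held 11615897 and 9125314 UMIs. Neurons gave 62.7% and 59.96% of Csf1 UMIs. Gas6 was spread over all 4 classes, with 49.5% and 36.7% of its UMIs in neurons.

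**Figure D1:**
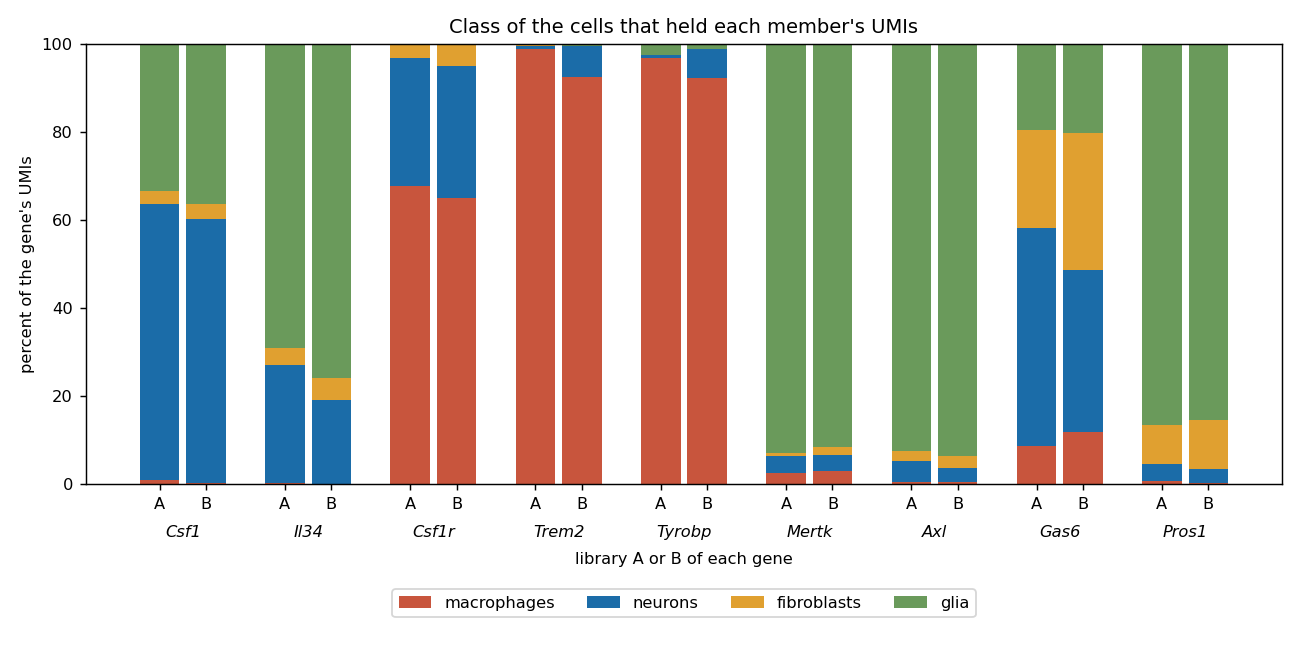
Percent of each member's UMIs (y axis) that lay in macrophages, neurons, fibroblasts and glia, stacked for library A and library B of each gene (x axis). Macrophages held over 90% of Trem2 and Tyrobp UMIs in both libraries, neurons about 60% of Csf1, and glia over 90% of Mertk and Axl. Glia were 87.3% and 88.8% of the cells in A and B, so a large glial share need not mean a high level.

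Levels per class were compared as CPM of the summed counts, with edgeR's quasi-likelihood test on the sums and Benjamini-Hochberg adjustment over all 13784 genes that passed its filter on low counts, which included all 9 members. In macrophages against neurons 7 members were higher and 2 lower, where 46.4% of all genes were called in either direction. Macrophages against fibroblasts gave 5 higher and 2 lower (26.1% of all genes called), and macrophages against glia 5 higher and 3 lower (30.2% called). In neurons against fibroblasts 2 were higher and 3 lower (69.5% called), in neurons against glia 5 were higher and 3 lower (83.3% called), and in fibroblasts against glia 3 were higher and 2 lower (54% called). In the comparisons of neurons or fibroblasts with glia, a call was thus about as common over all genes as among the members. The median log2 fold change over all genes was -0.28 in macrophages against neurons, -0.23 in macrophages against glia and 0.23 in neurons against glia. TMM, edgeR's scaling, moved fold changes against glia relative to plain library totals, by 0.40 on the log2 scale for macrophages, 0.30 for neurons and 0.39 for fibroblasts, and by up to 0.10 in the other pairs.

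**Figure D2:**
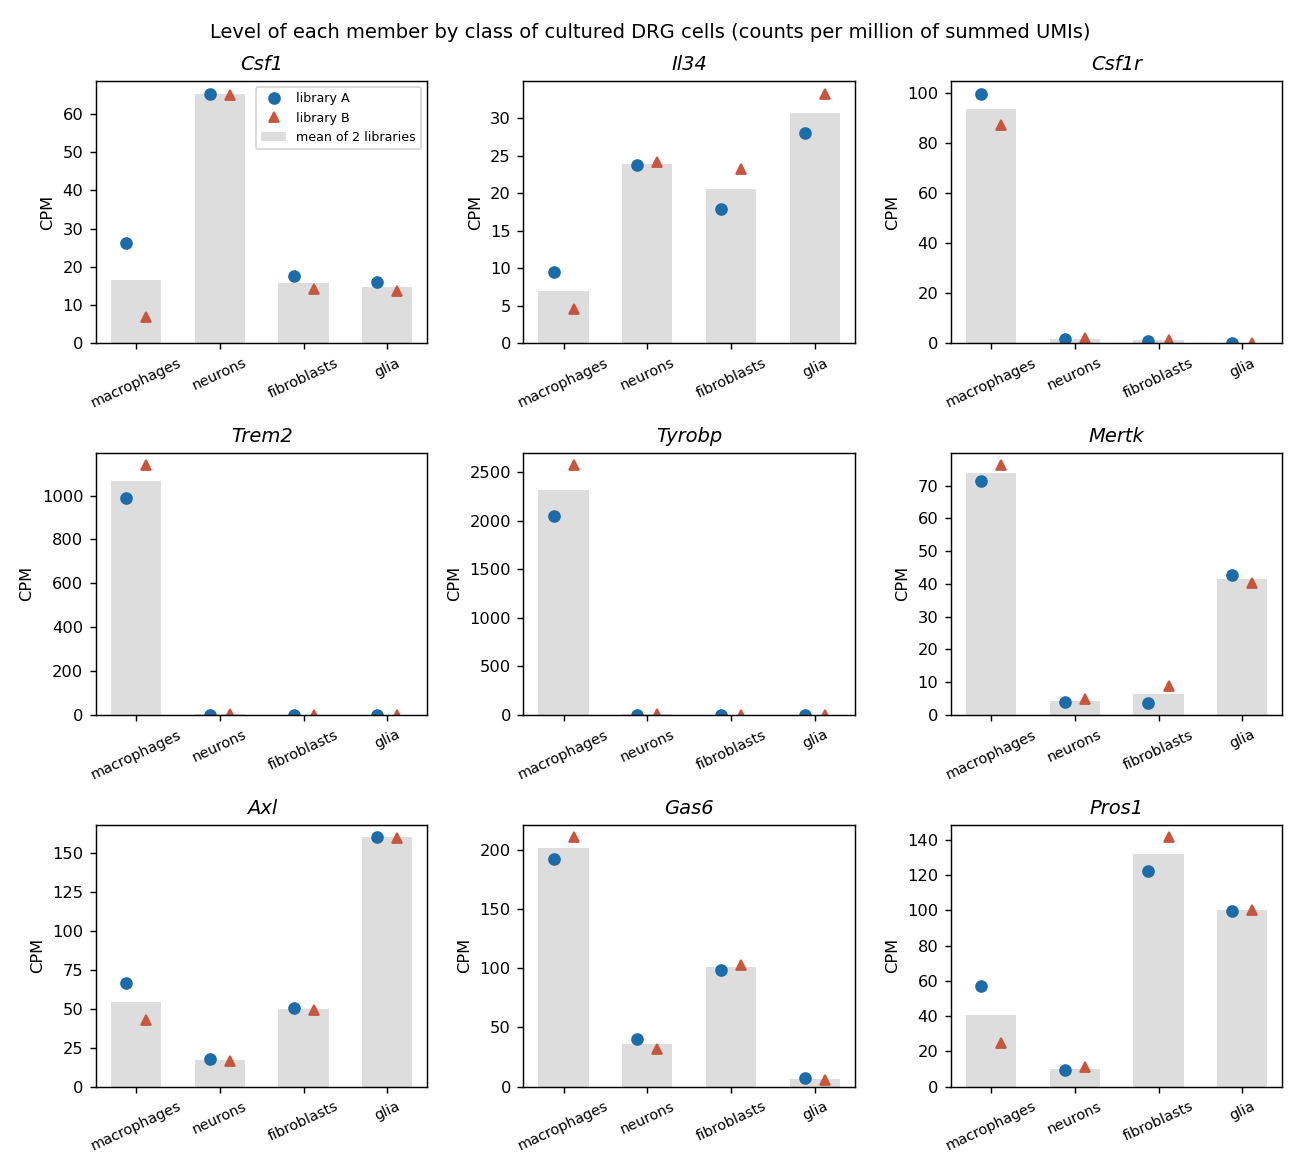
Level of each of the 9 genes in CPM (y axis, a linear scale of its own per gene) in macrophages, neurons, fibroblasts and glia, with a circle for library A, a triangle for library B and a bar for their mean. Csf1 was highest in neurons (65.3 and 65.0 CPM), Axl in glia (160.4 and 160.0 CPM), and Csf1r, Trem2 and Tyrobp stood near 0 outside macrophages.

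Of the 2 ligands of CSF1R, Csf1 was mainly a transcript of neurons. It reached 65.3 CPM in A and 65.0 CPM in B in neurons (759 and 593 UMIs), against 17.5 and 14.1 CPM in fibroblasts and 15.9 and 13.6 CPM in glia, and the neuronal values lay far above all others in both libraries. The log2 fold change was 1.96 ± 0.17 (SE) in neurons against fibroblasts (adjusted p = 3.4e-11) and 2.44 ± 0.09 in neurons against glia (adjusted p = 4.0e-20). Fibroblasts against glia did not pass (0.48 ± 0.21, adjusted p = 0.053). On plain totals the ratio of this pair was 1.06 (counting interval 0.82 to 1.36), and TMM moved it by 0.39 on the log2 scale. Macrophages held only 11 and 3 Csf1 UMIs (26.1 and 6.72 CPM), which put them 1.91 ± 0.34 below neurons on the log2 scale (adjusted p = 3.2e-05), with a log2 fold change of -1.31 in A alone and -3.003 in B alone. Their level was not resolved from that of fibroblasts (0.05 ± 0.46, adjusted p = 0.98) or glia (0.53 ± 0.45, adjusted p = 0.42). After every cell was thinned to 2000 UMIs, 2.44% of macrophages had a Csf1 UMI, against 9.64% of neurons, 3.39% of fibroblasts and 2.89% of glia. Per UMI of the neuronal tubulin gene Tubb3 there were 0.416 and 0.439 Csf1 UMIs in glia, against 0.0288 and 0.0282 in neurons.

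Il34 was spread differently. Macrophages had 9.51 and 4.48 CPM from only 4 and 2 UMIs, against 23.8 and 24.1 CPM in neurons, 17.9 and 23.3 CPM in fibroblasts, and 28.1 and 33.3 CPM in glia (713 and 876 UMIs). No pair among neurons, fibroblasts and glia passed the test: the log2 fold change was 0.13 ± 0.17 in neurons against fibroblasts (adjusted p = 0.51), -0.04 ± 0.09 in neurons against glia (adjusted p = 0.65) and -0.18 ± 0.16 in fibroblasts against glia (adjusted p = 0.39). This order depended on the settings: with library totals in place of TMM, neurons lay below glia (-0.35, adjusted p = 0.0012) and so did fibroblasts (-0.57, adjusted p = 0.0037). With possible doublets left out neurons lay below glia as well (-0.26, adjusted p = 0.0090). That setting dropped neurons with 3 or more macrophage marker UMIs, Aif1 included, and kept 383 and 333 neurons. Macrophages were lower than neurons by 1.70 ± 0.50 on the log2 scale (adjusted p = 0.0068), lower than glia by 1.74 ± 0.50 (adjusted p = 0.0077) and lower than fibroblasts by 1.57 ± 0.54 (adjusted p = 0.0315), the last of which was lost with DESeq2 (adjusted p = 0.051). In B alone the differences from glia and fibroblasts were -2.54 and -2.26. After thinning an Il34 UMI was found in 0 of 82 macrophages, which allows up to 3.66% of cells to carry one at that depth, and in 4.17% of neurons, 3.92% of fibroblasts and 6.06% of glia. Without thinning 6 of the 82 macrophages carried one.

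Csf1r, the receptor of both ligands, was detected in macrophages and hardly elsewhere. It had 99.8 CPM in A and 87.4 CPM in B in macrophages (42 and 39 UMIs), against 1.55 and 1.97 CPM in neurons (18 UMIs in each library), 2 and 3 UMIs in fibroblasts, and none in 9449 glia. Macrophages were 53.8-fold above neurons (counting interval 35.9 to 82.1). Against glia the lower counting bound was 1280-fold, and taking 3 counts over the whole class as the floor gave 1611-fold. The test gave a log2 fold change of 5.84 ± 0.34 in macrophages against neurons and 6.40 ± 0.46 in macrophages against fibroblasts (adjusted p = 1.1e-13 and 1.8e-11). Only 13.4% of macrophages had a Csf1r UMI after thinning, against 0 of the thinned glia, which allows up to 0.0324% of cells to carry one at that depth, and 48 of 82 macrophages had one without thinning. Neurons passed the test against glia, where Csf1r had no UMI. The neuronal UMIs lay in 17 cells of A and 15 of B, at most 2 to a cell, and 0 of those 17 and 4 of those 15 cells carried any UMI of the macrophage markers other than Aif1, which was itself counted in neurons. Csf1r overlaps the 3′ end of Hmgxb3 on the opposite strand.

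Trem2 and Tyrobp, the receptor and its adaptor, marked every macrophage: all 82 had at least 1 UMI of each, with a median of 9 and 11 Trem2 UMIs and 23 and 27 Tyrobp UMIs per cell in A and B. Trem2 reached 991 and 1138 CPM in macrophages, against 0.258 and 4.16 CPM in neurons, 1 and 0 UMIs in fibroblasts, and 1 and 3 UMIs in glia. Tyrobp reached 2051 and 2570 CPM in macrophages, against 0.603 and 9.10 CPM in neurons and 0.866 and 0.532 CPM in glia. It had no UMI in fibroblasts, where the floor of 3 counts put macrophages 3498-fold higher and the lower counting bound was 2842-fold. The log2 fold change in macrophages against neurons was 9.15 ± 0.20 for Trem2 and 9.14 ± 0.19 for Tyrobp (adjusted p = 2.3e-23 and 3.3e-23), or 11.07 and 11.32 in A alone and 8.26 and 8.35 in B alone. In macrophages against glia it was 13.93 ± 0.25 for Trem2 and 12.09 ± 0.21 for Tyrobp (adjusted p = 3.2e-25 and 5.4e-25). The neuronal values of library B came from a few cells. Its 8 neurons with at least 3 UMIs of macrophage markers other than Aif1 held 37 of the 38 Trem2 and 79 of the 83 Tyrobp UMIs, and 5 neurons held 915 of 933 UMIs of the macrophage lysozyme gene Lyz2. Without such cells neurons had 0.26 and 0.11 CPM of Trem2 and 0.35 and 0.45 CPM of Tyrobp, and the calls of both genes in neurons against glia, and of Tyrobp in neurons against fibroblasts, were lost. Of the glial Tyrobp UMIs, 15 of 22 in A and 11 of 14 in B lay in 1 of the 6 glial clusters, number 1. In each library 9 of the glial Tyrobp UMIs lay in the 6 glia with at least 3 UMIs of macrophage markers other than Aif1.

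The TAM receptor genes among the members, Mertk and Axl, divided between macrophages and glia. Mertk was highest in macrophages, with 71.3 and 76.2 CPM (30 and 34 UMIs), against 3.79 and 4.82 CPM in neurons, 3.77 and 8.72 CPM in fibroblasts, and 42.8 and 40.3 CPM in glia (1087 and 1060 UMIs), which came next. The log2 fold change was 1.23 ± 0.23 in macrophages against glia (adjusted p = 1.3e-04), or 0.83 with library totals in place of TMM and 0.70 in A alone, and -2.98 ± 0.14 in neurons against glia (adjusted p = 3.0e-17). After thinning a Mertk UMI was present in 12.2% of macrophages, 1.56% of neurons, 1.04% of fibroblasts and 8.19% of glia. There were 0.00569 and 0.00513 Mertk UMIs per Lyz2 UMI in macrophages, against 13.3 and 8.76 in glia, and the part of macrophage RNA in the glial Mertk values was not tested.

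Axl showed the opposite order of macrophages and glia. Macrophages had 66.6 and 42.6 CPM (28 and 19 UMIs), against 17.5 and 16.7 CPM in neurons, 50.5 and 49.0 CPM in fibroblasts, and 160.4 and 160.0 CPM in glia (4076 and 4210 UMIs). All 3 other classes lay below glia, macrophages by 1.16 ± 0.19 on the log2 scale (adjusted p = 2.1e-05), fibroblasts by 1.29 ± 0.10 (adjusted p = 6.9e-12) and neurons by 2.92 ± 0.08 (adjusted p = 1.2e-22). The difference between macrophages and fibroblasts was not resolved (0.14 ± 0.24, adjusted p = 0.75). After thinning the shares of cells with an Axl UMI were 2.44% in macrophages, 3.91% in neurons, 9.66% in fibroblasts and 27.4% in glia. Relative to the glial gene Fabp7, Axl had 0.135 UMIs per Fabp7 UMI in neurons of both libraries, against 0.155 and 0.162 in glia. For Mertk this ratio was 0.0293 and 0.0390 in neurons, against 0.0414 and 0.0408 in glia. For Pros1 it was 0.0719 and 0.0887 in neurons, against 0.0965 and 0.102 in glia. The part of glial RNA in these neuronal values was not tested.

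Both bridging ligands were present, in different classes. Gas6 was highest in macrophages, at 192.5 and 210.6 CPM, against 39.9 and 31.8 CPM in neurons, 98.6 and 102.6 CPM in fibroblasts, and 7.16 and 6.04 CPM in glia. Each step from macrophages to fibroblasts, neurons and glia passed the test, with a log2 fold change of 1.01 ± 0.16 in macrophages against fibroblasts (adjusted p = 1.4e-05), -1.58 ± 0.11 in neurons against fibroblasts (adjusted p = 1.1e-12) and 2.75 ± 0.11 in neurons against glia (adjusted p = 1.5e-18). Glia, in which Axl was highest, thus had the lowest level of Gas6, while Pros1 was high in them. Pros1 had 57.0 and 24.6 CPM in macrophages (24 and 11 UMIs), against 9.30 and 10.96 CPM in neurons, 122.7 and 141.6 CPM in fibroblasts, and 99.8 and 100.4 CPM in glia. Fibroblasts exceeded glia by 0.80 ± 0.09 on the log2 scale (adjusted p = 1.4e-08), or by 0.40 with library totals and 0.38 in A alone, and macrophages lay below fibroblasts by 1.70 ± 0.24 and below glia by 0.91 ± 0.25 (adjusted p = 2.7e-06 and 0.0064), or by 2.45 and 1.71 in B alone. Macrophages of A also had the higher sum of fibroblast markers (1906 CPM in A and 526 CPM in B) and of glial markers. The fibroblast marker Dcn had 3 UMIs in A and 41 in B. The part of RNA from other cells in the Pros1 values was not tested.

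The Axl and Pros1 counted in macrophages moved with glial RNA in the same cells. The 17 macrophages of A and 13 of B that carried 3 or more UMIs of the 8 glial markers held 24 and 17 Axl UMIs (88.7 and 95.2 CPM), against 4 and 2 in the 20 and 32 macrophages with fewer (26.7 and 7.47 CPM). For Pros1 the values were 73.9 and 39.2 CPM in the first kind, against 26.7 and 14.9 CPM in the second. All 6 Il34 UMIs of the class lay in cells of the first kind, and so did 9 of 11 Csf1 UMIs in A but 1 of 3 in B. The other genes went the other way: Mertk had 59.1 and 67.2 CPM with glial UMIs, against 93.3 and 82.1 CPM with fewer, Gas6 had 144 and 134 CPM with glial UMIs, against 280 and 261 CPM with fewer, and Csf1r had 70.2 and 72.8 CPM with glial UMIs, against 153 and 97.1 CPM with fewer. The first kind was also deeper, at a median of 15471 and 12818 UMIs, against 7397 and 7710.5 in the second. Possible doublets were taken as macrophages with 3 or more glial marker UMIs and other cells with 3 or more macrophage marker UMIs, Aif1 included. Leaving them out kept 383 and 333 neurons, whereas a cut on macrophage markers without Aif1 kept 431 and 367. With possible doublets left out, macrophages lay below fibroblasts in Axl (log2 fold change -1.70, adjusted p = 0.0077), and Mertk in macrophages against glia was 1.45. Pros1 in macrophages against neurons was then no longer called (1.18, adjusted p = 0.13).

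**Figure D3:**
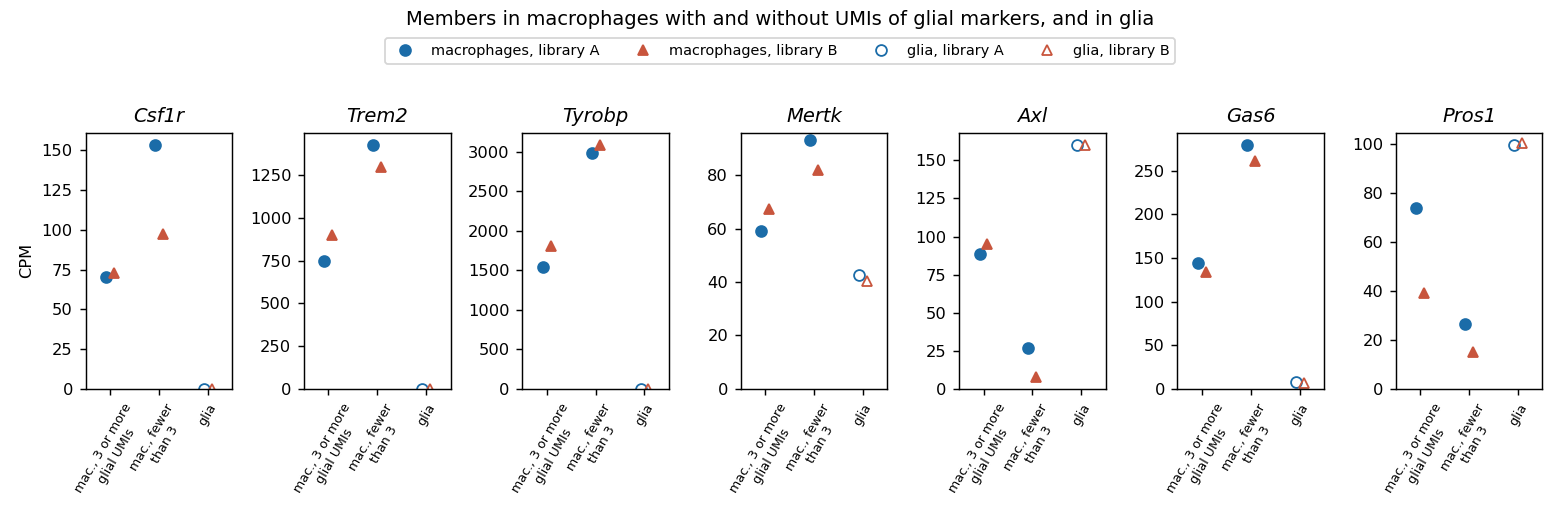
Level in CPM (y axis, a linear scale per gene) of 7 members in macrophages with 3 or more UMIs of glial markers, in macrophages with fewer than 3, and in glia, with filled symbols for macrophages, open symbols for glia, circles for library A and triangles for library B. Axl and Pros1 were lower in macrophages with few glial UMIs in both libraries, whereas Csf1r, Trem2, Tyrobp, Mertk and Gas6 were higher there.

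Detection of the receptors was also counted in single macrophages. Without thinning, Csf1r had a UMI in 25 of 37 macrophages of A and 23 of 45 of B, Mertk in 22 and 22, Gas6 in 29 and 32, Axl in 17 and 10, and Pros1 in 16 and 8. Csf1r and Mertk were found together in 18 cells of A and 11 of B, Mertk and Gas6 in 18 and 17, and Mertk and Axl in 11 and 6, while 9 and 19 cells had neither Mertk nor Axl. These shares were lower in B than in A for each single gene, among them 45.9% of cells in A and 22.2% in B for Axl. In glia thinned to 2000 UMIs, 33.5% had a UMI of Mertk or Axl. Axl was found in 25.7% of the glia with a Mertk UMI, against 27.5% of those without.

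Glia were clustered again to see where within the class these genes varied, and each of 6 clusters was tested against the mean of the others over 11652 genes. Csf1r, Trem2 and Tyrobp were too low for the test, and Csf1r had no UMI in any glial cluster. Cluster 0 was led by Apoe, Ndrg2 and Abca8a, cluster 1 by Tgfbi, Atf3 and Ucn2, clusters 2, 3 and 4 by cell cycle genes (histones, the Mcm genes and mitotic genes), and cluster 5 by Fxyd6 and histones. Among the 6 members tested, 4 were higher and 1 lower in cluster 0 (56.8% of all genes called), 4 higher in cluster 1 (48.5% called), 5 lower in cluster 2 (51.3% called), 2 higher in cluster 3 (25.7% called), 2 lower in cluster 4 (39.9% called), and 2 higher and 3 lower in cluster 5 (45.7% called).

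Cluster 0 combined high Il34, Mertk and Gas6 with low Csf1. Il34 had 42.8 and 51.3 CPM there, against a lowest cluster at 16.3 and 18.2 CPM (cluster 4), with a log2 fold change of 0.88 ± 0.08 in cluster 0 against the others (adjusted p = 1.1e-19). Mertk had 56.8 and 52.1 CPM, which was 0.50 ± 0.07 above the others (adjusted p = 9.0e-10). Gas6 had 13.4 and 11.6 CPM in cluster 0 (1.53 ± 0.18, adjusted p = 5.4e-14) and 1.84 and 1.09 CPM in cluster 5, its lowest (-2.09 ± 0.37, adjusted p = 3.4e-07). Csf1 was lowest in cluster 0, at 10.3 and 8.94 CPM (-0.78 ± 0.14, adjusted p = 7.6e-07), and highest in cluster 1, at 26.6 and 20.6 CPM (0.81 ± 0.13, adjusted p = 1.8e-08). Cluster 1 was also highest in Axl, at 201 and 196 CPM (0.38 ± 0.04, adjusted p = 5.0e-14), and in Pros1, at 118 and 112 CPM (0.27 ± 0.05, adjusted p = 1.3e-05). Over the 6 clusters the mean level ranged between 1.46 and 12.5 CPM for Gas6, 17.3 and 47.0 CPM for Il34, 9.64 and 23.6 CPM for Csf1, 32.6 and 54.5 CPM for Mertk, 137 and 199 CPM for Axl, and 91.3 and 115 CPM for Pros1. A finer clustering into 8 set apart a small cluster of 21 cells in A and 24 in B. It had the lowest Axl (37.4 CPM), Pros1 (72.8 CPM) and Mertk (28.3 CPM) and the highest Gas6 (23.2 CPM). So the order for Gas6 and the spread of Axl depended on whether these few cells were set apart.

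**Figure D4:**
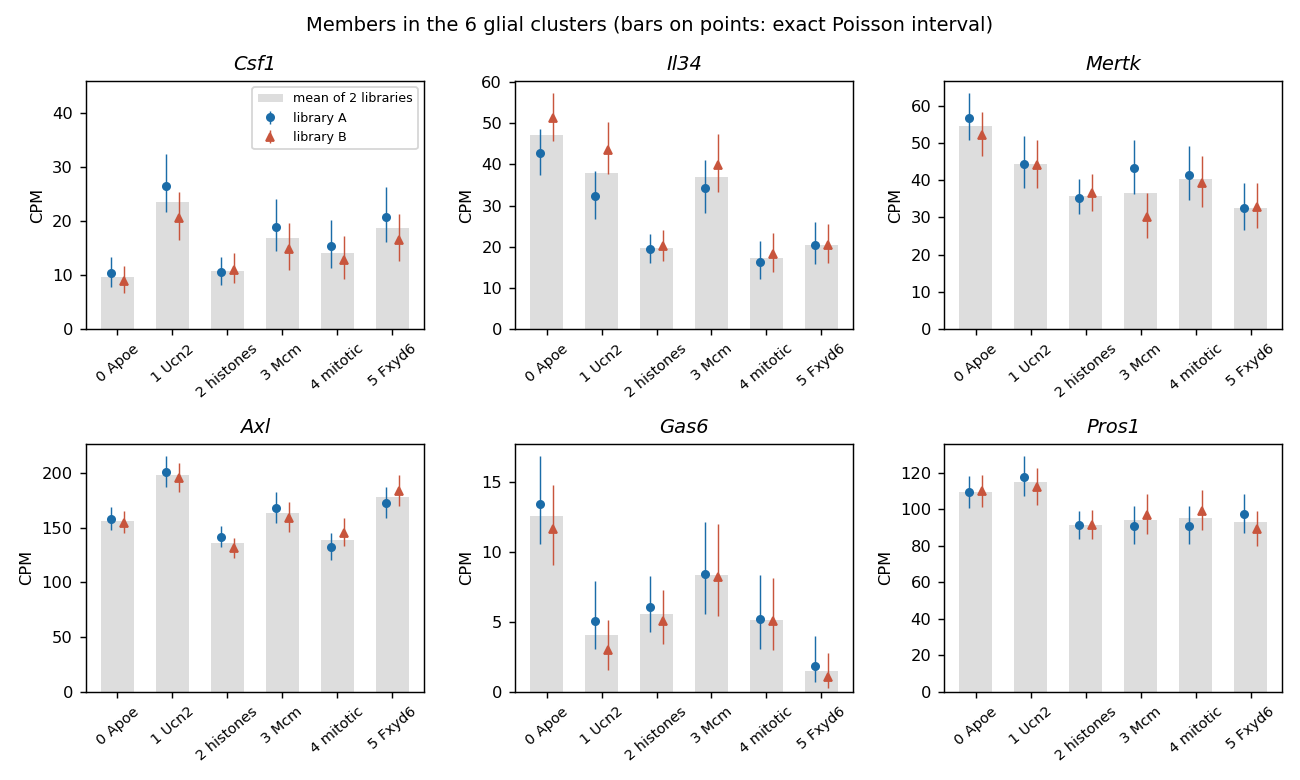
Level in CPM (y axis, linear) of the 6 members tested in each of 6 glial clusters, named on the x axis by number and a leading gene or theme, with circles for library A, triangles for library B, bars for their mean and lines for the exact 95% Poisson interval of each count. Cluster 0 was highest in Il34, Mertk and Gas6 and lowest in Csf1, and cluster 1 was highest in Csf1, Axl and Pros1.

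Neurons were clustered again in the same way, into 10 clusters tested over 10603 genes. Csf1 was high in cluster 0, led by Anxa1 and Sprr1a (128.5 and 123.6 CPM), cluster 7, led by Slc14a1 and Inhba (119.9 and 85.7 CPM), and cluster 2, led by Penk and Crh (88.3 and 113.4 CPM). It was low in cluster 8, led by Lpar3 and Mrgprd (6.37 and 9.15 CPM), cluster 3, led by Mrgpra3 (8.40 and 10.5 CPM), and cluster 1, led by Alkal2 and Ptgir (14.2 and 10.8 CPM). Of the rest, cluster 4 had 66.6 and 46.4 CPM and cluster 6 had 69.3 and 57.6 CPM. The shallow clusters 5 and 9 had 55.7 and 86.1 CPM, and 74.7 and 17.7 CPM. High and low clusters were picked by their Csf1 level. Against the mean of the other clusters the log2 fold change was 1.87 ± 0.13 in cluster 0, 1.62 ± 0.18 in cluster 7 and 1.50 ± 0.16 in cluster 2, and -2.55 ± 0.39 in cluster 8, -2.27 ± 0.28 in cluster 3 and -1.81 ± 0.23 in cluster 1, with adjusted p between 8.2e-22 and 1.7e-07. Over all 6 members tested, 3 were called in cluster 0 (21.5% of all genes called), 4 in cluster 1 (35.4%), 4 in cluster 2 (25.1%), 5 in cluster 3 (38.7%), 1 in cluster 4 (23%), 1 in cluster 5 (5.59%), 4 in cluster 6 (20.3%), 3 in cluster 7 (23.8%), 3 in cluster 8 (22.6%) and 3 in cluster 9 (22.9%).

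The 3 clusters high in Csf1 were also high in Atf3, a transcription factor gene switched on in axotomised sensory neurons. Atf3 had 722 and 632 CPM in cluster 0, 795 and 935 CPM in cluster 7, and 784 and 1073 CPM in cluster 2, against 87.6 and 73.2 CPM in cluster 8, 15.6 and 24.5 CPM in cluster 3, and 30.5 and 34.1 CPM in cluster 1. Over the 10 clusters, which share their libraries and differ in depth, Pearson's r of the log2 CPM of Csf1 and Atf3 was 0.82 in A and 0.91 in B. It was 0.71 and 0.86 for Csf1 and Sprr1a, a further gene induced by axotomy, and 0.18 and 0.42 for Csf1 and the neuropeptide gene Gal. In single neurons, those with an Atf3 UMI after thinning had 107 and 108 CPM of Csf1, against 42.3 and 34.99 CPM in those without, at similar median depths (29741 and 28867 UMIs with an Atf3 UMI, against 30218 and 27908 without). After thinning, 13.4% and 13.3% of the first had a Csf1 UMI, against 7.55% and 7.11% of the second, and the counting intervals overlapped in both libraries. For Sprr1a these shares were 12.4% and 17.0%, against 8.64% and 6.20%. For Gal they turned between libraries (7.94% against 11.5% in A, 13.5% against 4.94% in B).

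**Figure D5:**
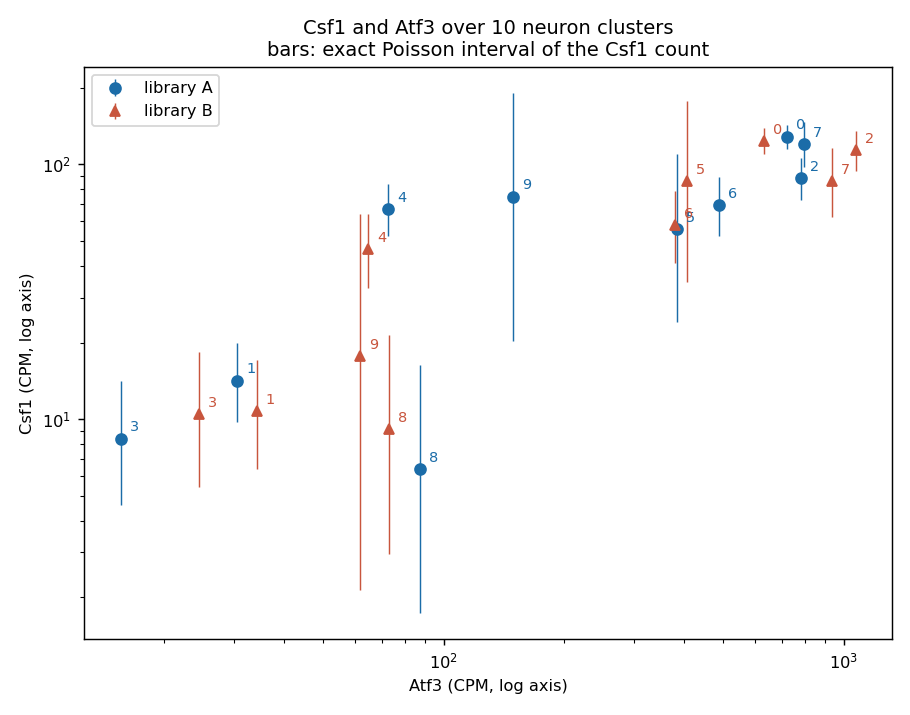
Csf1 (y axis) against Atf3 (x axis) in 10 numbered neuron clusters, both in CPM on log axes, with circles for library A, triangles for library B and vertical lines for the exact 95% Poisson interval of the Csf1 count. Clusters 0, 2 and 7 lie at the upper right in both libraries, and clusters 1, 3 and 8 at the lower left or centre.

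The other ligands followed other neuron clusters. Apart from the shallow cluster 9, Il34 was highest in cluster 7, at 42.8 and 49.8 CPM (log2 fold change 1.09 ± 0.24, adjusted p = 2.7e-04), and low in cluster 1, at 11.6 and 9.58 CPM (-1.25 ± 0.25, adjusted p = 3.1e-05). Gas6 was high in cluster 2, at 84.3 and 76.8 CPM (1.38 ± 0.18, adjusted p = 6.6e-10), and in cluster 1, at 53.7 and 45.5 CPM (0.61 ± 0.17, adjusted p = 0.0036, which DESeq2 put at 0.072). It was low in cluster 3, at 10.8 and 18.4 CPM (-1.39 ± 0.27, adjusted p = 1.3e-05, and -0.59 in B alone), and in cluster 0, at 29.0 and 13.6 CPM (-0.72 ± 0.20, adjusted p = 0.0055, and -0.23 in A alone). So clusters 0 and 2, both high in Csf1, differed in Gas6, and cluster 1, low in Csf1, was high in Gas6. The call of Gas6 in cluster 5 rests on library A (132 CPM in A and 24.6 CPM in B), and that cluster had a median of only 1903 and 1171.5 UMIs.

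Axl, Mertk and Pros1 reached their highest neuronal level in cluster 9, whose 27 cells were led by Mgp, Spp1 and Apoe, genes of glia and fibroblasts, at a median of 4330 and 5085 UMIs. There Axl had 149 and 88.5 CPM (2.82 ± 0.47, adjusted p = 1.7e-06) and Pros1 112 and 97.4 CPM (3.48 ± 0.55, adjusted p = 4.5e-07), against 160.4 and 160.0 CPM of Axl and 99.8 and 100.4 CPM of Pros1 in glia. TMM moved this cluster by -0.26 relative to library totals. Cluster 6, led by Lyz2, C1qa and Pnoc, held 33 of the 38 Trem2 and 67 of the 83 Tyrobp UMIs that neurons of B carried, and none of either in A. Leaving out neurons with 3 or more macrophage marker UMIs other than Aif1 kept 35 of its 35 cells in A and 30 of 33 in B.

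The genes around this axis were read in 8 lists of 84 genes in all, some of which hold members. In macrophages against glia, where 15.4% of all genes were higher and 14.8% lower, the list of CSF1R and TREM2 signalling had 15 of 16 tested genes higher and none lower (median log2 fold change 6.40, against -0.23 over all genes), led by Spi1, which encodes PU.1 (185 and 255 CPM in macrophages, against 0.0393 and 0.0760 CPM in glia), Inpp5d, a phosphatase of this pathway (49.9 and 78.4 CPM in macrophages, against 0.0393 and 0 CPM in glia), and Hcst, a further adaptor (28.5 and 33.6 CPM in macrophages, with no UMI in glia). Lysosomal digestion and lipid handling had all 13 genes higher (median 4.51), among them Ctss, a cysteine protease (1680.5 and 1844 CPM in macrophages, against 0.590 and 0.304 CPM in glia), and Gpnmb (2394 and 2422 CPM in macrophages, against 9.09 and 9.73 CPM in glia). Of 12 clearance receptors, 6 were higher and 3 lower (median 1.05, or 1.91 with genes at 0 in a class set at their bound). Those that led, Cd36, Cd300lf, Cd300a and Stab1, are scavenger and phosphatidylserine receptors, with Cd36 at 368 and 470 CPM in macrophages, against 0.0787 and 0 CPM in glia. Of the engulfment genes 5 of 12 were higher, including the haematopoietic Dock2 and Rac2, and 2 lower, including Gulp1, an adaptor that binds engulfment receptors (30.9 and 2.24 CPM in macrophages, against 106 and 98.2 CPM in glia).

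In neurons against glia 48.4% of all genes were higher and 34.9% lower, and most genes of each of the 8 lists were called. Of 12 clearance receptors 4 were higher and 7 lower (median -1.20, against 0.23 over all genes). The lowest were Megf10, an engulfment receptor of glia (9.30 and 12.5 CPM in neurons, against 102 and 99.2 CPM in glia), and Itgav, the integrin subunit that binds MFGE8 (18.2 and 19.2 CPM in neurons, against 151 and 142 CPM in glia). Dock1 and Gulp1 were lower too (for Dock1 8.35 and 9.31 CPM in neurons, against 110 and 104 CPM in glia), while 7 of 12 engulfment genes were higher and 4 lower in all. Of 10 genes for signals on target cells, 7 were higher and 2 lower in neurons, with Cd24a, an inhibitory surface protein, at 596 and 601 CPM in neurons, against 25.7 and 26.5 CPM in glia. Panx1, the channel that releases nucleotides from dying cells, had 97.6 and 99.6 CPM in neurons and 40.1 and 39.6 CPM in glia. In macrophages against glia 2 of these 10 were higher, including Sirpa, the receptor of CD47 (269 and 327 CPM in macrophages, against 19.9 and 18.8 CPM in glia), and none lower, with a median of -0.19 that turned to 0.07 with the 1 gene at 0 in a class set at its bound.

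Adam10, a protease that sheds TREM2 and AXL from the cell surface, was highest in glia. It had 112 and 98.6 CPM in macrophages, against 80.1 and 80.98 CPM in neurons, 51.9 and 52.3 CPM in fibroblasts, and 430 and 425 CPM in glia (log2 fold change in macrophages against glia -1.62, adjusted p = 5.0e-11), and it was 1 of 2 lower among 5 proteases, with none higher. Bridging molecules were mostly higher in fibroblasts than in glia: in fibroblasts against glia 7 of 8 were higher and none lower (median 1.60), where 29.4% of all genes were higher and 24.6% lower. The 8 include Gas6 and Pros1, and among the rest were Thbs1 (87.3 and 89.7 CPM in fibroblasts, against 0.315 and 0.228 CPM in glia), Anxa1 (298 and 302 CPM in fibroblasts, against 31.0 and 36.4 CPM in glia) and Mfge8 (87.7 and 106 CPM in fibroblasts, against 31.9 and 31.4 CPM in glia). In macrophages against glia 4 of 8 were higher and 3 lower. Of the remaining growth factor genes of myeloid cells, 3 of 5 tested were higher in macrophages than in glia and none lower, led by the GM-CSF receptor genes Csf2rb (49.9 and 71.7 CPM in macrophages, against 0.0787 and 0 CPM in glia) and Csf2ra (78.4 and 69.5 CPM in macrophages, against 10.6 and 9.39 CPM in glia).

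Within glia the lists also followed the clusters. In cluster 0, where Mertk was highest, 6 of 8 tested clearance receptors were higher and none lower (median 0.46, against 0.02 over all genes), and 9 of 11 digestion genes were higher and none lower (median 0.37), with 29.5% of all genes higher and 27.3% lower. Cluster 2, where Mertk was lower (-0.21 ± 0.08, adjusted p = 0.020, and -0.097 in B alone), had 4 of the 8 clearance receptors higher and none lower as well, with 28.4% of all genes higher and 22.9% lower. In cluster 1, where Axl and Pros1 were highest, none of the 8 clearance receptors was higher and 6 were lower (median -0.38, against -0.03 over all genes), with 21.7% of all genes higher and 26.9% lower. Of 7 bridging molecules 6 were higher there and none lower, a list that holds Pros1 itself, and 4 of the 7 were higher and 1 lower in each of clusters 0 and 3.

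Finally, the genes most like each member were ranked by Pearson's r of log2(CPM + 1) over 36 points, the glial and neuron clusters, fibroblasts and macrophages of both libraries, among 9775 genes. These points share libraries and differ in depth, so r is a description. Trem2 was closest to Ccr1, Msr1 and Ms4a6d (r = 0.99 each), Tyrobp to Fcer1g, Spi1 and Bcl2a1b (0.98 each), and Csf1r to Gmfg (0.94), Csf2rb2 and Fcgr3 (0.93 each). Axl was closest to Hspg2 (0.98), Cdc42ep5 (0.97) and Pxn (0.96), Pros1 to Col18a1 (0.98), Rcn3 (0.96) and Antxr1 (0.95), and Mertk to P2rx7, Itgav and Maf (0.92 each). The ligands had less close neighbours: Gas6 was closest to Ctsl (0.84), Mroh1 (0.81) and Dse (0.79), Csf1 to Tmem43 (0.83), C1ql2 (0.82) and Nrip1 (0.81), and Il34 to Pibf1, Rab18 (0.77 each) and Kdm6b (0.76).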

How the data were processed

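Droplet libraries (10x Chromium 3′, A and B) gave UMI counts per gene and cell, deposited by the authors as filtered matrices and not normalized. Cell Ranger 3.0.2 and Seurat 3 stand in the submitters' processing notes, and the matrix headers give software version 3.1.0. The raw counts were used as deposited. Cells with at least 200 genes and at most 10% mitochondrial UMIs were clustered with Seurat 5.3.0 (2000 variable genes without the members and pathway lists, 20 dimensions, resolution 0.18, or 0.3 within neurons). Clusters came from the cells then tested. Counts summed per library and class or cluster were compared by the quasi-likelihood F-test of edgeR 4.0.16 after its low-count filter and TMM scaling, with library as a block and an adjusted p under 0.05 called, on 3 residual degrees of freedom for class pairs, 5 for glial and 9 for neuron clusters. The SE printed after ± is the absolute log2 fold change divided by the square root of that F. CPM divides a summed count by all UMIs of its group. Floors are 3 counts, intervals are exact at 95%, and both cover counting error only. Scrublet in scanpy 1.11.5 called 2 and 3 doublets, too few to have worked, so no doublets were removed. Shares of cells used cells thinned to 2000 UMIs, which left out 42 neurons, 6 fibroblasts, 181 glia and 0 macrophages. Named genes are the 9 members, the 3 genes most like each member, and up to 4 genes per list with the largest called change in both libraries at 20 CPM or more. The members and lists were chosen with earlier results of these data known. Alternatives covered DESeq2 1.42.0, filters, blocks, class definitions, depth and each library left out. The scripts were tested on simulated data.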

Additional observations from a re-analysis of the deposited data

How the results depend on the processing

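The number of genes called and of member calls stayed within 1.5 times in every alternative: 42 member calls in class pairs (39 to 44), 23 in glial clusters (17 with DESeq2 to 24) and 31 in neuron clusters (27 to 34). Without the replicate block, which pairs sums of the same library, 12922 genes and 40 member calls were found in class pairs, 9771 and 23 in glial clusters, and 7910 and 32 in neuron clusters, against 12874, 9852 and 7888 genes with it. Leaving out a library left no residual degrees of freedom in class pairs, so those values carry no test. All members highest in macrophages stayed so (5 of 9) with either library alone. The direction of a log2 fold change turned in the following cases, and their cause was not tested. With possible doublets left out, Axl in macrophages against neurons was -0.059 and against fibroblasts -1.70, Csf1 in macrophages against fibroblasts -0.62 and against glia -0.22, Il34 in neurons against fibroblasts -0.0024, and Trem2 in neurons against fibroblasts -0.17. With classes from markers alone, macrophages against fibroblasts gave -0.080 for Csf1 and -0.25 for Axl. With a mitochondrial limit of 5%, Axl in macrophages against fibroblasts was -0.0034 and Il34 in neurons against glia 0.17. Without the cells of highest Scrublet score, Il34 in neurons against fibroblasts was -0.0062. Without non-macrophages that carried macrophage UMIs, chosen after seeing the data, Trem2 in neurons against fibroblasts was -0.22, and without such neurons Gas6 in neuron cluster 6 was 0.013. Axl in glial cluster 3 was -0.015 with DESeq2 and -0.028 without a filter on low counts, and Mertk in glial cluster 4 was 0.0084 with library totals, also chosen after seeing the data. Tyrobp in neurons against glia was -0.44 without replicate B and 3.71 without replicate A, and Gas6 in neuron cluster 5 was -0.33 without replicate A and 1.91 without replicate B. Of results that were not called, 6 in class pairs and 15 in clusters also turned with 1 library alone. In class pairs these were Csf1 in macrophages against fibroblasts (-0.98) and glia (-0.70), Axl in macrophages against fibroblasts (-0.13), Il34 in neurons against fibroblasts (-0.12) and Trem2 in fibroblasts against glia (-0.62) without replicate A, and Trem2 in neurons against fibroblasts (-0.63) without replicate B. With 82 macrophages, values of Csf1 and Il34 there rest on 14 and 6 UMIs.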
